A study of Mus musculus with 17 samples.

Results

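The genes of oxidative phosphorylation were followed through mouse small intestinal organoids as these differentiated, with and without an inhibitor of nuclear export. They comprise 99 of the 26422 gene symbols in the deposited count tables and were picked out by the start of their symbols. Of these, 87 are encoded in the nucleus. They divide into 38 symbols of complex I subunits (Nduf), 7 of complex I assembly factors (Ndufaf), 8 of complex III (Uqcr), 17 of complex IV (Cox4 to Cox8) and 17 of complex V (Atp5). The other 12 carry the prefix mt- and are encoded in mitochondrial DNA. The symbols of Ndufa4, which is now counted among the subunits of complex IV, and of Atp5s, which encodes coupling factor B, place them with complex I and complex V here. Atp5sl and Atp5l-ps1, whose suffix marks a pseudogene, are likewise counted with complex V by symbol alone. The symbols Cox4i2, Atp5g2 and mt-Atp8 are not listed in the counts.

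In oxidative phosphorylation, complexes I, III and IV of the inner mitochondrial membrane pass electrons from NADH to oxygen and pump protons, and complex V, the ATP synthase, uses the proton gradient to make ATP. Complexes I, III, IV and V each combine subunits made from nuclear genes with subunits made inside the mitochondrion from mitochondrial DNA, which is transcribed as long transcripts from both strands and then cut into single RNAs. In the intestinal epithelium, absorptive enterocytes are rich in mitochondria, whereas Paneth cells of the crypt base are known for secretory granules filled with antimicrobial peptides.

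The organoids grew from crypts of C57BL/6 mice, and many organoids were pooled for each sample. Day 0 is represented by 2 libraries from organoids in ENR+CV, a medium with EGF, Noggin, R-spondin 1, CHIR99021 and valproic acid that enriches stem cells. From day 0.25 to day 6 organoids were kept in ENR+CD, where DAPT, a blocker of Notch cleavage, takes the place of valproic acid and the cells are directed towards Paneth cells. This gave 7 control libraries and 8 libraries with 160 nM KPT-330, which inhibits the nuclear exporter XPO1, all sharing the growth factors and CHIR99021. At day 6 both conditions were sampled with 2 libraries, at day 3 the KPT-330 arm alone was, and every remaining pairing of condition and day rests on 1. Nothing states that the libraries of a group came from separate cultures, so p-values measure the spread between these libraries, which may be technical.

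Seq-Well S3 captures single cells in wells with barcoded beads and counts unique molecular identifiers (UMIs). Over the 19877 cells kept by the authors, libraries held 531 to 1547 cells and 3458887 to 12433109 UMIs, and 14 barcode sequences occurred in more than 1 library. Levels are UMIs per 10000 UMIs of the library or cell class, and a level falls where cells rich in a transcript become fewer or where each cell holds less of it, which library sums cannot tell apart. Summed counts were tested with edgeR's quasi-likelihood test after TMM scaling, and a gene was called at a Benjamini-Hochberg adjusted p below 0.05 over all genes. Xpo1, the target of KPT-330, ranged from 0.607 to 1.69 in control and from 1.03 to 5.01 with KPT-330 (log2 fold change 1.504 ± 0.086 SE, edgeR adjusted p = 7.76e-07). The library of KPT-330 day 6 replicate 1 stood apart, since it held 134 of the 163 cells of a cluster that stayed unnamed. The sums of 8 mesenchyme markers (0.109 to 1.19), 8 immune markers (0.0284 to 0.701) and 10 tuft markers (0.0179 to 0.0756) stayed low in every library.

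The mitochondrial members differed in how much of their sequence also occurs in nuclear transcripts. Fragments of mitochondrial DNA have been copied into the nuclear chromosomes, and a read that fits a copy and the original equally well has no single position. For mt-Co2, which encodes a core subunit of complex IV, 100% of 50-base words of the transcript also occur in nuclear transcripts, and the one sharing the most is Gm28661 on chromosome 1. A stretch near the 3′ end is shown for both, with a stretch of mt-Nd1, a complex I subunit none of whose words occurs in a nuclear transcript, for comparison. The sequences come from GENCODE transcripts of GRCm38.p6, and the windows are chrM:7607-7666 on the plus strand, chr1:24614912-24614971 on the minus strand and chrM:3618-3677 on the plus strand, all within transcribed exons.
mt-Co2: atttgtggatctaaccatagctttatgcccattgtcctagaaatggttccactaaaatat
Gm28661: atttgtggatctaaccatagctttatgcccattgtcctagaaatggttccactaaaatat
mt-Nd1: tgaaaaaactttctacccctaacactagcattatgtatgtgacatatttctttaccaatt
The first 2 sequences are identical, and over the 681 bases of the Gm28661 transcript there were 0 mismatches to mt-Co2.

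Over all kept cells mt-Co2 had 9 UMIs and mt-Nd1 had 562940. The same contrast ran through the 12 listed mitochondrial members. Of the words of mt-Co2, mt-Atp6, mt-Co3, mt-Nd3 and mt-Nd4l, 98.0% to 100% occurred in a nuclear transcript, and these members had 5 to 265 UMIs over all 17 libraries. In the other 7 members the share was 0% to 62.2%, and each had at least 4426 UMIs. Outside the listed members mt-Atp8 went against this contrast. Its share was 0%, yet it is not listed in the counts. For mt-Co1, the catalytic subunit of complex IV, the share was 51.1% over the transcript and 100% over its last 300 bases, and the gene still had 271265 UMIs. The part of these copies in the counts was not tested. mt-Co2, mt-Atp6, mt-Co3 and mt-Nd4l were too low to be tested, so the mitochondrial members tested are 8, of which mt-Nd3 rests on 265 UMIs.

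**Figure D1:**
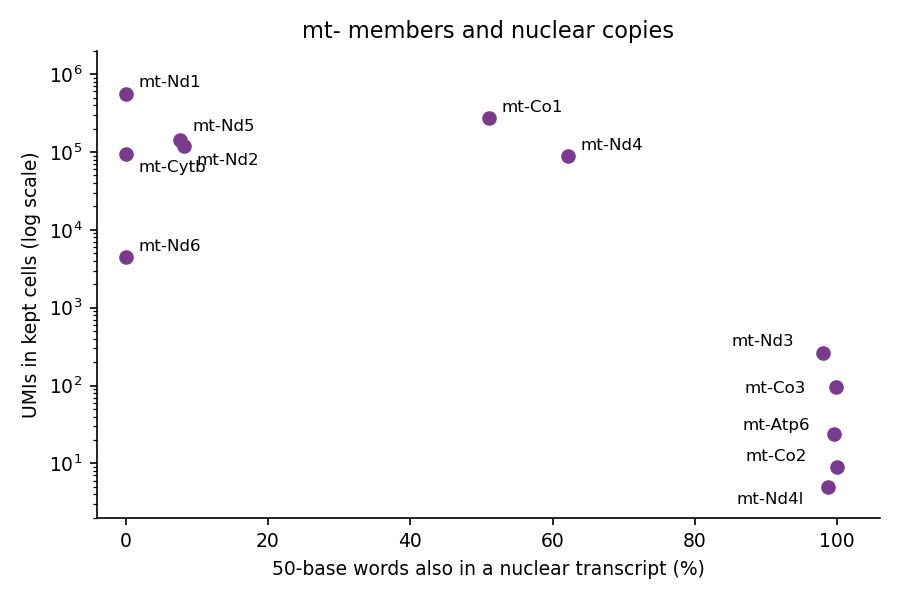
UMIs over all kept cells (vertical axis, log scale) of the 12 listed mitochondrial members against the percentage of their 50-base words that also occur in a nuclear transcript (horizontal axis); each point is a gene. The 5 genes at 98.0% to 100% have 5 to 265 UMIs, and the other 7 have 4426 to 562940.

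Among 85 nuclear members with a protein-coding transcript, the same comparison over the last 300 bases found 4 that shared at least 50% of their words with a gene elsewhere, namely Atp5l, Cox7c, Ndufs3 and Ndufs5. Their median level was 0.0607, against 1.26 for the other 81 members. Whether reads were split among copies was not tested, and the share over all genes was not taken, so values of these 4 genes are uncertain. Members below 50% also shared words, among them Uqcrb (40.6%, with 4 other genes) and Atp5g1 (20.3%, with 26 other genes), and the same limit holds for them.

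The promoters of the nuclear members were searched for motifs of known regulators, each of which most members lacked. A promoter from RefSeq (GRCm38.p6, 250 bases before to 50 after the start) was matched for 69 of the 87. Searched on both strands, the palindromic NRF1 motif, in capitals in the Cox6a1 promoter below, occurred in 6 members (8.70%), against 1.07% of the 27025 genes with a promoter. The YY1 motif, in capitals in the Ndufa9 promoter below, occurred in 5 members (7.25%, against 0.995%) and the ETS core CCGGAAG in 15 (21.7%, against 9.93%). The half-site of estrogen-related receptors, AAGGTCA, occurred in 7 (10.1%, against 5.38%) and the TATA box TATAAA in 7 (10.1%, against 15.7%). A match is a description of letters and not of binding. Cox6a1, a complex IV subunit, and Ndufa9, a complex I subunit, are shown as members that hold an NRF1 with an ETS match and a YY1 match. Cox7a1 is shown because its pattern differed from that of the other members. Motif letters are in capitals, and in Cox6a1 the ETS core reads as its reverse complement. Positions are chr5:115348909-115349208 (minus strand), chr6:126849095-126849394 (minus strand) and chr7:30183921-30184220 (plus strand).
Cox6a1: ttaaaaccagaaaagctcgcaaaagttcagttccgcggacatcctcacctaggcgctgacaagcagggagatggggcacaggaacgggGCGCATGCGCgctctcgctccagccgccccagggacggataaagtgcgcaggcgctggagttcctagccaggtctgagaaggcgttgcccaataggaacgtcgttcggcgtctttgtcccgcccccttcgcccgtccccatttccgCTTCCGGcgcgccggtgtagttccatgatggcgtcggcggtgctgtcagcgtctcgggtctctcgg
Ndufa9: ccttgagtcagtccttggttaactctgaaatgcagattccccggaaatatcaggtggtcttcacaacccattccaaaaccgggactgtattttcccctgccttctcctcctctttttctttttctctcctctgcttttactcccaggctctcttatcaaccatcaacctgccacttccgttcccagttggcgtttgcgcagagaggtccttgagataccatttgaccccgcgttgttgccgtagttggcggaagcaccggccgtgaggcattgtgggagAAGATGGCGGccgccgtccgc
Cox7a1: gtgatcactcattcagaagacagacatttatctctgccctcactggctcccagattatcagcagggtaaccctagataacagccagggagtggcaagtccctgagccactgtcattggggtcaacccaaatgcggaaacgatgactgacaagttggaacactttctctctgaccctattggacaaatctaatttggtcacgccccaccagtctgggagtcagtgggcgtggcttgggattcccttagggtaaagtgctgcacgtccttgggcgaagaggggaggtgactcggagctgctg
None of the NRF1, ETS and YY1 letters occurs in the Cox7a1 window, and most other members also lacked each of these motifs.

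To ask how these genes changed as stem-enriched organoids differentiated, nuclear and mitochondrial members were summed apart in each library. Nuclear members summed to 181.4 and 201.8 UMIs per 10000 at day 0, and to 96.2 and 90.7 in the control libraries of day 6. The day 6 mean of 93.5 ± 3.9 (SD, n = 2) was 51.2% below the day 0 mean of 191.6 ± 14.4 (SD, n = 2), and the groups did not overlap. Between them the control libraries descended without a break to day 4, with 203.5 at day 0.25, 167.7 at day 1, 142.2 at day 2, 104.3 at day 3 and 95.4 at day 4. The largest step came between day 0.25 and day 3, and days 4 and 6 lay within a few UMIs of each other. Control libraries of days 0.25 and 1 carry replicate number 1 only, and those of days 2, 3 and 4 carry number 2 only. Day and replicate number are therefore partly confounded along this course.

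Mitochondrial members followed no such course. They summed to 163.4 and 131.5 at day 0 and to 89.7 and 50.5 in the day 6 controls. The day 6 mean was 52.5% lower, but at day 6 replicate 1 exceeded replicate 2 by 0.83 on the log2 scale in control and by 1.41 with KPT-330. In nuclear members the replicates of a group differed by at most 0.15 on that scale. Control libraries in between ranged from 94.1 to 133.9, with the highest value at day 2, so that no steady descent was seen.

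**Figure D2:**
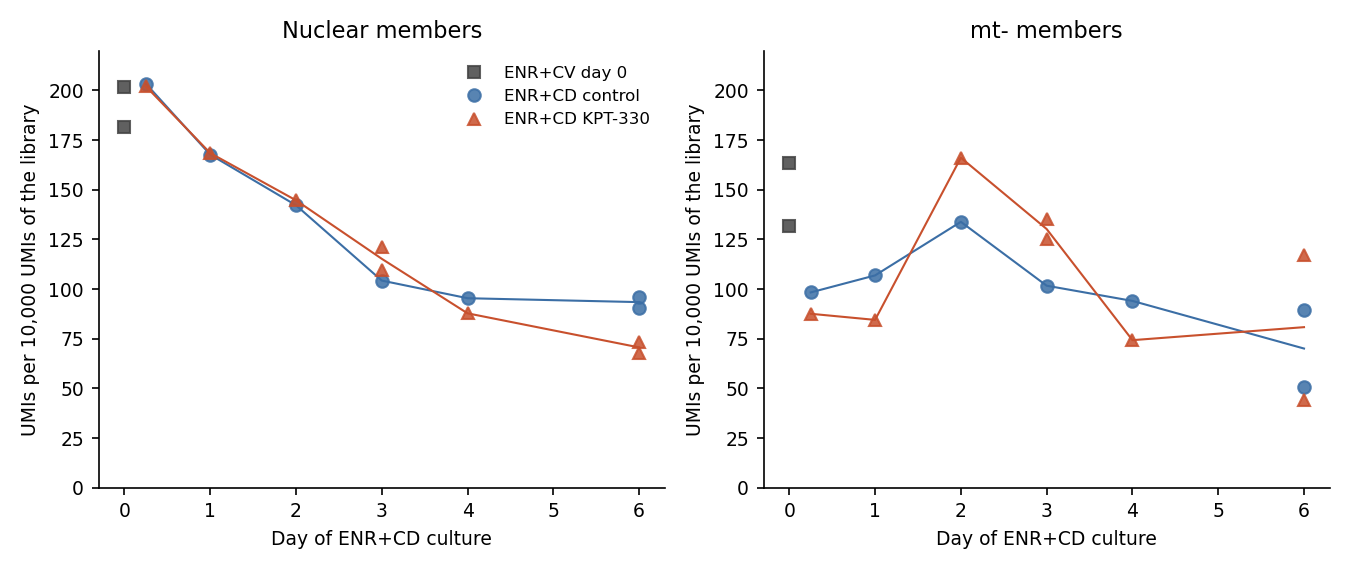
Summed UMIs of nuclear members (left) and mitochondrial members (right) per 10000 UMIs of the library (vertical axes) against day of culture (horizontal axes); each point is a library and lines join the means of a day. Nuclear members descended from 203.5 at day 0.25 to 93.5 at day 6 in controls, while mitochondrial members showed replicates as far apart as 117.4 and 44.3 with KPT-330 at day 6.

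Between day 0 and the day 6 controls, 65 of 81 nuclear members tested fell and 0 rose in edgeR, against 20.2% of all genes lower and 19.7% higher. Their median log2 fold change was -0.85, against 0.01 over all genes. DESeq2 called 56 lower and 0 higher. Medium and time changed together in this comparison, and without control day 6 replicate 2 only 35 nuclear members were called.

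All groups of nuclear members took part. In complex I, 28 of 37 subunits fell, with a median of -0.81. The smallest p was that of Ndufv1, the subunit that binds NADH and flavin, which measured 2.44 and 2.63 at day 0 and 0.920 and 0.875 at day 6 (log2 -1.38 ± 0.17, edgeR adjusted p = 0.000132). Ndufa1, a small membrane subunit, was the single complex I subunit above 0, with 0.707 and 0.826 at day 0 against 0.908 and 0.757 at day 6, which overlap (log2 0.25 ± 0.17). All 7 assembly factors fell, with a median of -1.13. Ndufaf2, which acts late in complex I assembly, went from 0.794 and 0.728 to 0.236 and 0.210 (log2 -1.64 ± 0.20, edgeR adjusted p = 0.000114).

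In complex III, 7 of 8 subunits fell, with the lowest group median of -1.19. Uqcr10, a small subunit, went from 5.13 and 4.65 to 1.59 and 1.25 (log2 -1.67 ± 0.22, edgeR adjusted p = 0.000224). Uqcrb, which binds ubiquinone, was the exception at 0.353 and 0.525 against 0.490 and 0.381, with day 6 inside the range of day 0 (log2 0.13 ± 0.21). In complex IV, 11 of 13 fell, with a median of -0.96, and Cox5b, a peripheral subunit, went from 1.53 and 1.76 to 0.825 and 0.679 (log2 -1.002 ± 0.18, edgeR adjusted p = 0.00154).

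In complex V, 12 of 16 fell, with a median of -0.81. Atp5o, which encodes the stalk protein that confers oligomycin sensitivity, went from 2.66 and 2.78 to 1.23 and 0.985 (log2 -1.17 ± 0.19, edgeR adjusted p = 0.000715). Atp5s stood on the other side with 0.0692 and 0.0693 at day 0 and 0.0820 and 0.119 at day 6, a difference that was not called (log2 0.63 ± 0.31). The members not called included Atp5l, Cox7c and Ndufs5, 3 of the 4 with at least 50% of end words shared with another gene, while Ndufs3 was called lower. Among members below that limit, Atp5h and Cox6c (38.25% each) were called lower and Uqcrb (40.6%) was not. A link between shared words and calls was not tested.

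Several complex IV subunits and subunit c of complex V have isoforms encoded by separate genes, so paired isoforms were set side by side. The broadly expressed forms fell together. Cox4i1 had a log2 fold change of -0.96 ± 0.20, Cox6a1 of -1.16 ± 0.22, Cox6b1 of -0.96 ± 0.24, Cox7a2 of -0.98 ± 0.24, Cox7a2l of -1.07 ± 0.20 and Cox8a of -0.68 ± 0.21, all called. The forms known from muscle or testis were close to absent, with 2 UMIs of Cox6a2 and 1 of Cox8b over all libraries. Cox6b2 had 57 UMIs in 13 libraries and levels of 0.0134 and 0.0291 at day 0 against 0 and 0.00676 at day 6, so that its log2 value of -3.22 ± 1.08 rests on few molecules. Cox7a1, the muscle form of subunit VIIa, was present in all 17 libraries. Of the genes for subunit c, Atp5g1 fell (log2 -0.99 ± 0.19) and Atp5g3 was not called (log2 -0.68 ± 0.29), its day 0 libraries lying at 4.06 and 7.98. Ndufa4 fell (log2 -0.75 ± 0.19), while its paralogue Ndufa4l2 had 1 UMI.

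Of the 8 mitochondrial members tested, 0 were called between day 0 and day 6 in edgeR and 0 in DESeq2, and 2 had an unadjusted p below 0.05. These were mt-Nd1, which went from 93.6 and 77.2 to 36.8 and 14.8 (log2 -1.61 ± 0.62), and mt-Nd2, which went from 13.9 and 13.5 to 7.30 and 4.08 (log2 -1.15 ± 0.50). For each of the pair the day 6 libraries lay below both day 0 libraries, but the spread between replicates was wide. mt-Co1 measured 25.5 and 18.0 at day 0 and 18.9 and 14.5 at day 6. mt-Cytb, the complex III subunit of the mitochondrial genome, measured 7.80 and 6.54 against 7.54 and 6.16. mt-Nd5 measured 16.2 and 10.8 against 10.04 and 6.17, and mt-Nd4 5.94 and 5.20 against 8.63 and 4.44. For mt-Co1, mt-Cytb, mt-Nd3, mt-Nd4 and mt-Nd6 the groups overlapped. The decline of the mitochondrial sum thus lay largely in mt-Nd1, the member with the most UMIs.

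Within ENR+CD alone, the slope with day in the 7 control libraries was lower for 36 of 80 nuclear members and higher for 0, against 9.3% of all genes lower and 7.88% higher in edgeR. The median slope was -0.17 per day on the log2 scale. By group, 14 of 37 complex I subunits, 0 of 7 assembly factors, 6 of 8 complex III, 7 of 12 complex IV and 9 of 16 complex V members were called. Ndufv1 fell by 0.21 per day (SE 0.034, edgeR adjusted p = 0.0105). Of the mitochondrial members 0 of 8 were called, 2 had an unadjusted p below 0.05, and the median slope was 0.01. DESeq2 called 1, mt-Nd1. The nuclear count depended on single libraries, falling to 4 without control day 6 replicate 2 and to 6, 11 and 17 without day 1, day 0.25 and day 4, and reaching 65 without day 6. Day is partly confounded with replicate number in these libraries. With that number as a block, 40 of 80 nuclear members were called lower, against 884 of 12809 genes.

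Because the cell types of an organoid change along this course, levels were also taken within cell classes. Cells were clustered without the 99 genes and without any other mt- gene, and clusters were named from 10 markers per type, while 2 clusters stayed unnamed. In untreated libraries nuclear members summed to 203.0 ± 24.6 (SD, n = 9) in enterocyte-like cells, 165.6 ± 27.9 (n = 9) in cycling-like cells and 140.4 ± 33.5 (n = 9) in stem I-like cells. They summed to 119.6 ± 31.7 (n = 8) in enteroendocrine-like, 118.5 ± 34.8 (n = 9) in goblet-like and 64.7 ± 8.5 (n = 5) in Paneth-like cells. Goblet-like and enteroendocrine-like cells were within their spread of each other, whereas the highest Paneth-like library (79.2) lay below the lowest library of every other class. The goblet-like class joined cluster 5 (116.7 over pooled cells of all libraries) with cluster 11 (72.8), whose top genes held goblet markers beside the Paneth marker Lyz1. Defa24, also a Paneth marker, was among the most abundant genes of the class. The paper describes goblet cells as a very small fraction, whereas this class held 13.7% of kept cells, so its name is uncertain. Taken gene by gene, 59 of 80 nuclear members were highest in enterocyte-like cells and 78 of 80 were lowest in Paneth-like cells. These means mix class with day, since Paneth-like cells reached 20 cells only in libraries of days 2, 3, 4 and 6. Compared within libraries, summed nuclear members were lower in Paneth-like cells than in each other class in 5 of 5 (mean log2 -0.49 to -1.51).

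Cells of each class were next pooled over all libraries, those with KPT-330 included. The 20 most abundant genes other than mt- genes then took 38.1% of UMIs in Paneth-like cells, led by the defensin gene Defa24. They took 13.0% to 21.0% in the other classes. With these genes left out of the pooled counts, nuclear members reached 95.7 per 10000 in Paneth-like cells and 118.1 to 237.9 elsewhere. Paneth-like cells were thus still the lowest. Mitochondrial members then reached 121.5 in Paneth-like cells, inside the range of 111.5 to 187.9 of the other classes. Mitochondrial members separated the classes less. In untreated libraries their sums were 127.7 ± 36.4 in stem I-like, 125.5 ± 37.5 in enterocyte-like and 107.3 ± 29.5 in cycling-like cells. They were 97.5 ± 24.1, 93.6 ± 25.1 and 68.7 ± 17.4 in enteroendocrine-like, goblet-like and Paneth-like cells. These ranges overlapped among all classes, but the classes came from the same libraries. Compared within libraries, mitochondrial members were lower in Paneth-like cells than in each other class in 5 of 5 libraries (mean log2 -0.24 to -0.75), and lower in goblet-like than in stem I-like cells in 9 of 9 (-0.44). Of the 8 genes, 5 were highest in stem I-like and 3 in enterocyte-like cells.

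The share of Paneth-like cells rose from 0.802% of cells at day 0 to 45.9% in the day 6 controls, and cycling-like cells went from 42.4% to 4.64%. Summed Paneth markers ranged from 29.6 to 45.0 per 10000 at day 0 and from 34.0 to 1210 in controls. Within classes the log2 ratio of the nuclear members at day 6 to day 0 was -0.30 in enterocyte-like, -0.47 in cycling-like, -0.64 in stem I-like, -0.74 in goblet-like and -0.82 in enteroendocrine-like cells, and in each class the highest day 6 library was below the lowest day 0 library. Enteroendocrine-like cells had 1 library at day 0 and Paneth-like cells had none with 20 cells. Several classes were held by different clusters at the 2 times. Cluster 4 held 99.5% of stem I-like cells at day 0 and 12.5% at day 6, cluster 9 held 87.5% of enterocyte-like cells at day 0 and 7.69% at day 6, and cluster 7 held 93.3% and 34.3% of enteroendocrine-like cells. The median log2 ratio to other cells over the stem I markers was 0.76 in cluster 4 and 1.75 in cluster 2. Top genes of cluster 4 held Aqp4, Olfm4 and Cd44 of these markers beside Mcm3, Dtl and Cdca7, which are not among them. In the paper most cells at the start were stem II or III and stem I emerged later. Here 28.2% of day 0 cells were named stem I-like, so this name is uncertain at day 0. Within cluster 4 nuclear members measured 163.7 and 196.2 at day 0 and 140.0 and 130.9 at day 6. These values rest on 162 and 397 cells at day 0 and on 14 and 56 at day 6, of which 14 is below the minimum of 20.

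**Figure D3:**
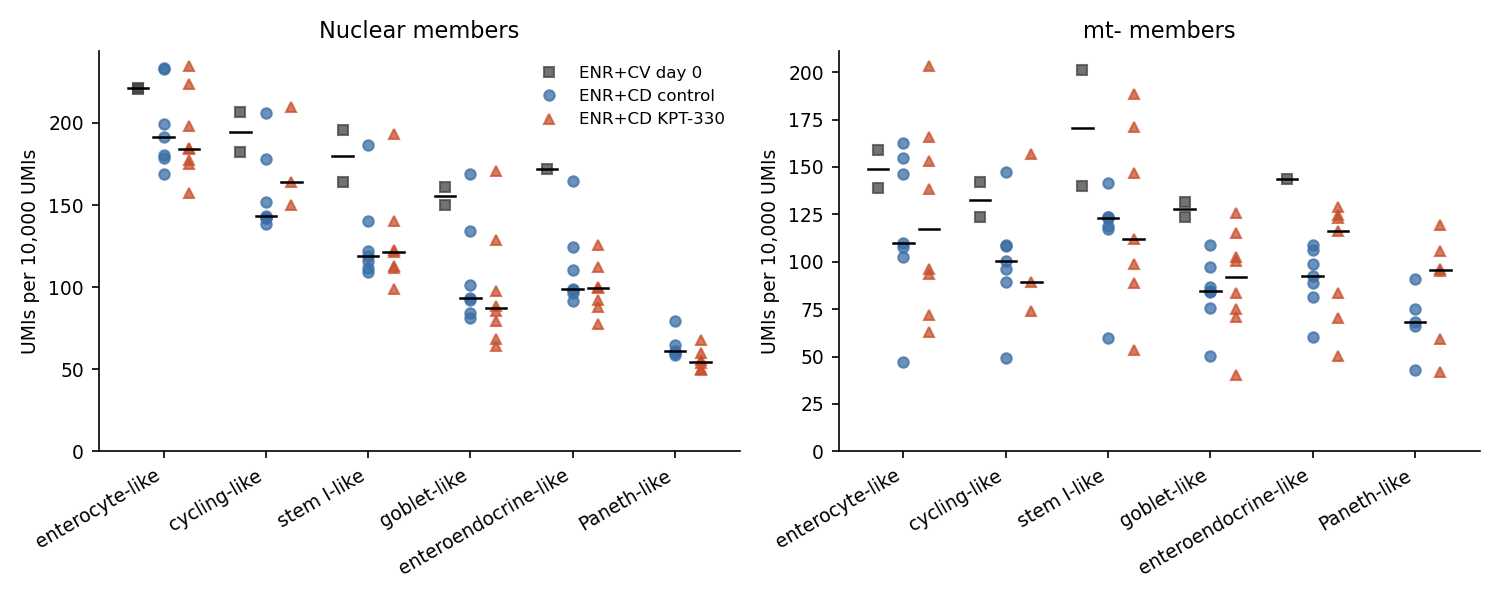
Summed UMIs of nuclear members (left) and mitochondrial members (right) per 10000 UMIs of a cell class (vertical axes) in the 6 named classes (horizontal axes); each point is a library with at least 20 cells of the class, and bars are medians. In untreated libraries nuclear members stepped down from 203.0 in enterocyte-like to 64.7 in Paneth-like cells, and mitochondrial members overlapped among classes when libraries were not matched.

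The next comparison asked whether KPT-330 changed these genes along the time course. The summed nuclear members of treated and control libraries tracked each other until day 4, at 202.1 against 203.5 at day 0.25, 168.5 against 167.7 at day 1 and 144.7 against 142.2 at day 2. At day 3 the treated libraries were at 109.5 and 121.0 against 104.3, at day 4 at 87.8 against 95.4, and at day 6 at 67.975 and 73.4 against 96.2 and 90.7. Treated libraries were thus higher on 3 of 6 days, and at day 6 both lay below both controls.

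Over the 6 days the mean log2 ratio was -0.06 ± 0.19 (SD, n = 6) on library totals and 0.16 ± 0.18 after TMM scaling. The sign turned because TMM factors were lower with KPT-330 on 6 of 6 days (mean log2 -0.22 ± 0.16), and the median of all genes moved from -0.27 on totals to 0.00 with TMM. Paneth markers ranged from 47.7 to 1820 with KPT-330 and from 34.0 to 1210 in control. The part of this difference in the scaling was not tested. Mitochondrial members gave -0.01 ± 0.31 on totals and 0.21 ± 0.40 with TMM, smaller than the spread between days either way.

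Gene by gene, 7 of 80 nuclear members rose with KPT-330 after TMM scaling and 0 fell, against 14.4% of all genes higher and 14.2% lower in edgeR, so that the share of 8.75% was below the background. On library totals 0 rose and 6 fell (7.5%), against 3.67% of all genes higher and 38.2% lower, again below the background. The median was 0.14 with TMM and -0.12 on totals, against 0.00 and -0.27 over all genes, so that the median of the nuclear members lay above that of all genes under each scaling. Of the calls over all genes, 50.3% were higher with TMM and 8.75% on totals. DESeq2 called 8 nuclear members higher and 0 lower. Leaving out single libraries gave 3 to 16 called members, and without day 3 the count was 0.

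The 7 called genes were 3 of complex III (Uqcrfs1, Uqcrb and Uqcrc2), 2 of complex IV (Cox6a1 and Cox4i1), 1 of complex I (Ndufa9) and 1 of complex V (Atp5g1). Uqcrfs1 encodes the Rieske iron-sulfur protein of complex III. Its level had a lowest, median and highest value of 1.21, 1.61 and 2.57 in control and 1.15, 2.20 and 2.65 with KPT-330 (log2 0.38 ± 0.10, edgeR adjusted p = 0.0151). Cox6a1 had 3.10, 3.71 and 7.23 in control and 2.37, 4.75 and 8.82 with KPT-330 (log2 0.35 ± 0.10, edgeR adjusted p = 0.0161). Ndufa9 had 0.658, 0.739 and 1.39 in control and 0.517, 0.853 and 1.66 with KPT-330 (log2 0.27 ± 0.07, edgeR adjusted p = 0.0145). The conditions overlapped broadly in each of the 3 genes, because the fall with day was larger than the difference within a day.

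After TMM scaling Uqcrfs1, Cox6a1, Ndufa9, Cox4i1, Uqcrc2 and Atp5g1 were higher with KPT-330 on 6 of 6 days and Uqcrb on 5 of 6. On library totals Cox6a1 and Uqcrfs1 were higher on 5 days, Cox4i1, Uqcrb and Uqcrc2 on 4, and Ndufa9 and Atp5g1 on 3, and none of the 7 was called. Cox4i1 and Uqcrc2, a core protein of complex III, turned to log2 values of -0.01 each on totals. The 7 assembly factors had a median of -0.09 with TMM and -0.35 on totals, and their difference from the subunits was not tested. With TMM 0 were called in edgeR and 0 had an unadjusted p below 0.05, and on totals 3 were called lower (Ndufaf2, Ndufaf3 and Ndufaf7), close to the 38.2% of all genes. Their summed level on totals was below control on 6 of 6 days (mean log2 -0.25 ± 0.16), near the all-gene median of -0.27. Ndufaf2 ranged from 0.178 to 0.651 in control and from 0.128 to 0.431 with KPT-330 (log2 -0.16 ± 0.11 with TMM, edgeR adjusted p = 0.313).

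Among the isoforms, Cox6b1 (log2 0.11 ± 0.12), Cox7a2 (0.22 ± 0.11), Cox7a2l (0.02 ± 0.10), Cox8a (0.06 ± 0.12), Atp5g3 (0.28 ± 0.12) and Ndufa4 (0.23 ± 0.10) were not called after TMM scaling. Atp5l, a small subunit of the membrane part of complex V, had the most negative value (log2 -0.32 ± 0.24) and is 1 of the 4 members with at least 50% shared end words.

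Of the 8 mitochondrial members, 0 were called with KPT-330 in edgeR, 0 had an unadjusted p below 0.05 and DESeq2 called 0. All 8 lay above 0 with TMM (median 0.39) and 6 of 8 on totals (median 0.10). Without KPT-330 day 6 replicate 1 the TMM median was 0.13, and without replicate 2 it was 0.46 and 1 member was called. mt-Nd2 had the largest value (log2 0.50 ± 0.25), with levels of 4.08 to 12.9 in control and 3.55 to 16.6 with KPT-330. mt-Nd6, the subunit encoded on the light strand, ranged from 0.293 to 0.491 in control and from 0.212 to 0.840 with KPT-330, and its highest value came from KPT-330 day 6 replicate 1. Without any filter on low counts 5 mitochondrial members were called higher (mt-Co1, mt-Cytb, mt-Nd2, mt-Nd4 and mt-Nd6), against 7.79% of all genes. Whether the difference moved along the time course was tested as an interaction with day, for which 0% of 12812 genes were called in edgeR, although 1343 had an unadjusted p below 0.05. Among these were 1 of 80 nuclear and 1 of 8 mitochondrial members, and DESeq2 called 0 of either.

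**Figure D4:**
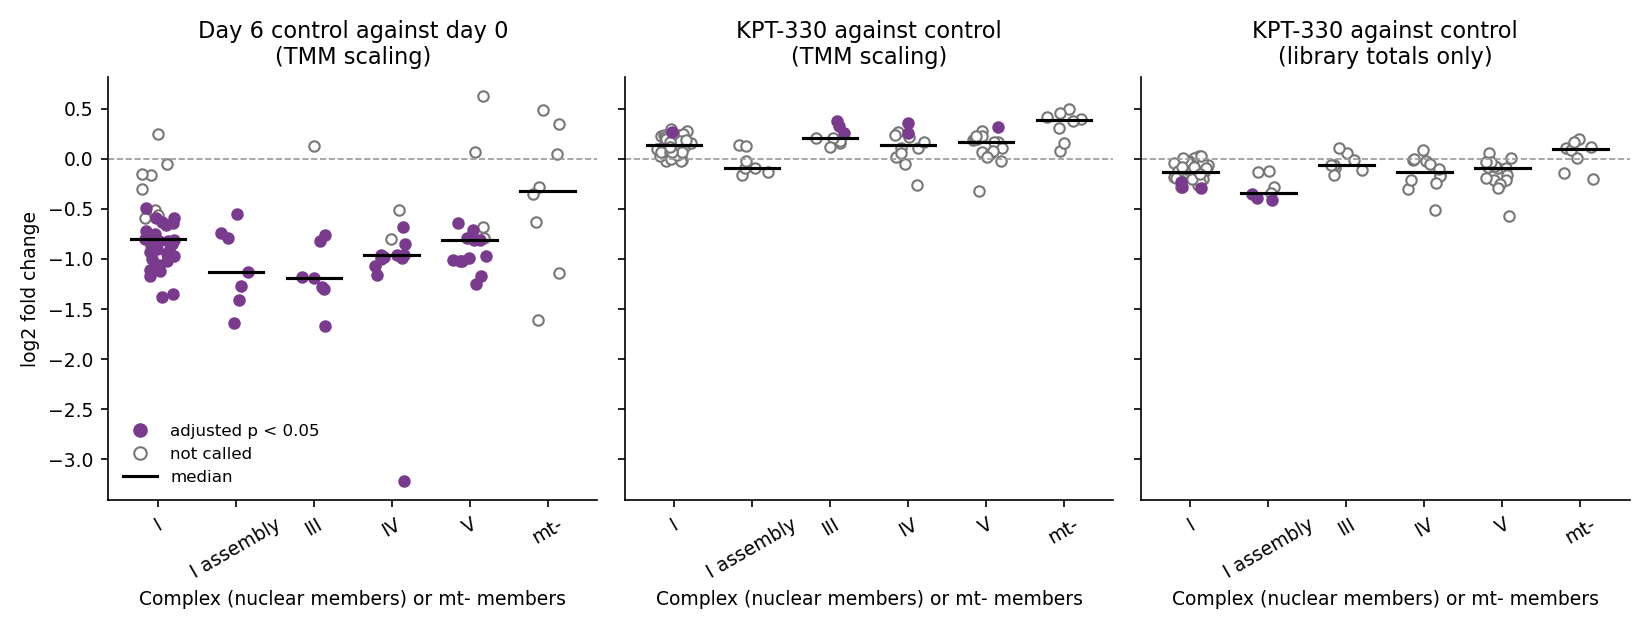
Log2 fold changes (vertical axis) of nuclear members by complex and of mitochondrial members (horizontal axes), for day 6 control against day 0 (left) and for KPT-330 against control after TMM scaling (middle) and on library totals only (right); each point is a gene, filled where the adjusted p is below 0.05, and bars are medians. At left 65 nuclear members are filled below 0, and with KPT-330 7 are filled above 0 with TMM and 6 below 0 on totals.

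Within cell classes the comparison with KPT-330 was repeated on counts summed per library and class. Of the nuclear members, 1 of 79 was called in enterocyte-like cells, where 4.19% of all genes were called. In the other classes edgeR called 0, namely 0 of 75 in cycling-like (0.364% of all genes called), 0 of 78 in stem I-like (4.24%), 0 of 76 in enteroendocrine-like (2.01%), 0 of 73 in goblet-like (3.44%) and 0 of 76 in Paneth-like cells (3.99%). At an unadjusted p below 0.05 there were 5, 7, 4, 2 and 3 in the same order. The shares of all genes were 9.27%, 16.7%, 14%, 15.6% and 17.3%. DESeq2 was not run within classes. The smallest p-values in those classes belonged to Ndufaf3 in cycling-like (log2 -1.02), Uqcrq in stem I-like (-0.34), Atp5g3 in enteroendocrine-like (-0.33), Ndufv2 in goblet-like (0.25) and Ndufa13 in Paneth-like cells (-0.26), none of which was called. Medians of the nuclear members lay between -0.06 in Paneth-like and 0.03 in enterocyte-like cells.

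The gene called was Cox7a1. It was an enterocyte gene in these organoids, in that 81.8% of its 856 UMIs came from the 2675 enterocyte-like cells. In untreated libraries its level was 0.377 ± 0.182 per 10000 in that class and 0.00758 to 0.0308 in the others. With KPT-330 it fell in enterocyte-like cells (log2 -1.03 ± 0.16, edgeR adjusted p = 0.000459). At day 1 the control measured 0.533 and the treated library 0.217, at day 2 they measured 0.447 and 0.257, and at day 4 they measured 0.569 and 0.168. At day 3 the control stood at 0.569 and the treated libraries at 0.265 and 0.233. At day 0.25 the conditions were close, at 0.221 and 0.209, and at day 6 they overlapped, at 0.214 and 0.115 against 0.0980 and 0.134. All treated libraries were below control on 5 of 6 days, and the difference was widest from day 1 to day 4. Days 1, 2 and 4 have 1 library per condition. The untreated day 0 libraries, which are outside this test, measured 0.512 (23 UMIs) and 0.217 (13 UMIs). Untreated replicates of 1 day thus lay as far apart as many of the treated and control libraries.

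Counts behind these levels were small, from 2 to 156 UMIs in a library. Clusters 6 and 9 made up the enterocyte-like class in unequal parts, cluster 6 holding 50.5% of its cells in control and 69.2% with KPT-330. Within cluster 6 Cox7a1 measured 0.391 in control and 0.257 with KPT-330 over pooled cells, and within cluster 9 it measured 0.466 and 0.187, so that the direction was the same in each. Over whole libraries Cox7a1 was not called (log2 -0.26 ± 0.22), while the enterocyte-like share of cells was 9.45% in control libraries and 19.1% in treated ones.

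**Figure D5:**
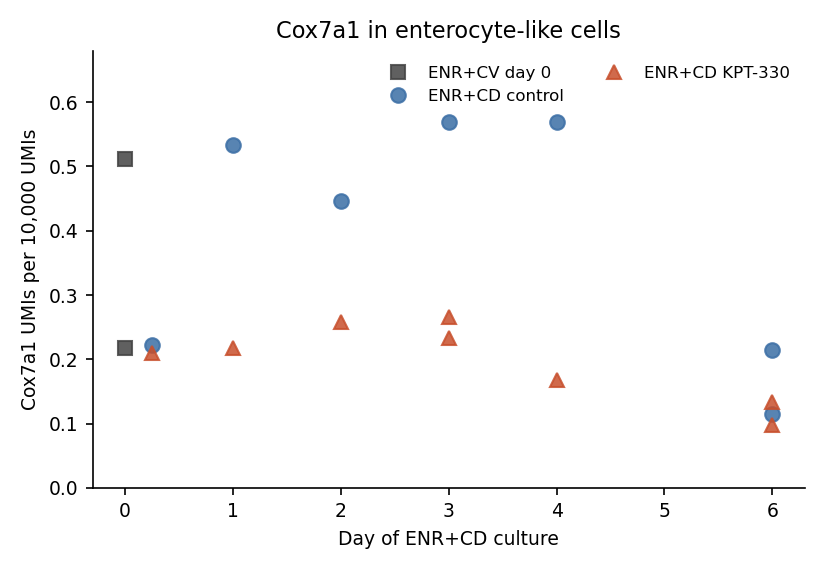
Cox7a1 UMIs per 10000 UMIs of enterocyte-like cells (vertical axis) against day of culture (horizontal axis); each point is a library. From day 1 to day 4 control libraries lie between 0.447 and 0.569 and treated libraries between 0.168 and 0.265, while at days 0.25 and 6 the conditions are close. The day 0 libraries lie at 0.512 and 0.217.

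Of the mitochondrial members 0 of 7 were called in any class. In Paneth-like cells 5 of 7 had an unadjusted p below 0.05, against 17.3% of all genes there, and the median was 0.50, with mt-Nd6 at 0.77 ± 0.22 (edgeR adjusted p = 0.0601), mt-Co1 at 0.50 ± 0.16 (0.0836) and mt-Cytb at 0.53 ± 0.17 (0.0907). KPT-330 day 6 replicate 1, which stood apart, summed to 105.5 in these cells against 41.9 in replicate 2, with a median of 14.5% and 5.73% mt- UMIs per cell. Without it the median was 0.30, 3 of 7 had an unadjusted p below 0.05 and 0 were called in edgeR, with mt-Nd6 at 0.41, mt-Co1 at 0.34 and mt-Cytb at 0.31. With all libraries, the count of calls rose to 7 without a filter on low counts, against 3.99% of all genes called there. It rose to 4 with the replicate number as a block and to 1 without day 6. Shares of all genes are not given for the block and for the fit without day 6. Goblet-like cells had 3 of 7 members below an unadjusted 0.05, against 15.6% of all genes, and 0 without KPT-330 day 6 replicate 1. The remaining classes had 0. In Paneth-like cells the summed nuclear members were below control on 4 of 4 days on totals (mean log2 -0.21 ± 0.09), where the median of all genes was -0.16, and the summed mitochondrial members were above control on 3 of 4 days (0.24 ± 0.28). Most Paneth-like cells belonged to cluster 0 with KPT-330 (63.4%) and to cluster 1 in control (56.7%).

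Other genes of the pathway were taken from lists assembled by function. Between day 0 and day 6, where 20.2% of all genes were lower and 19.7% higher, most lists had larger shares of lower genes. Of 6 genes of complex II, the succinate dehydrogenase, 4 fell, and of 34 electron carriers and further assembly or subunit genes 17 fell and 1 rose. Those that fell included Cyc1, the cytochrome c1 of complex III (log2 -1.43 ± 0.18, edgeR adjusted p = 0.000168). The one that rose was Cox17, which carries copper to complex IV (0.53 ± 0.17, edgeR adjusted p = 0.0242). In the TCA cycle with pyruvate dehydrogenase 14 of 18 fell, in the mitochondrial ribosome 64 of 76, in mitochondrial import 17 of 23 and in mitochondrial DNA maintenance, transcription and RNA 9 of 14. The smallest p was in the ribosome, for Mrps22 (log2 -1.69 ± 0.16, edgeR adjusted p = 3.17e-05). Of the 10 other mt- genes tested, among them the ribosomal RNAs, 1 fell, the transfer RNA gene mt-Ti (log2 -2.64 ± 0.66). Of 10 regulators of mitochondrial biogenesis 2 fell, so that neither list exceeded the background.

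With KPT-330 after TMM scaling 3 of 6 complex II genes, 7 of 34 carriers and 7 of 18 TCA cycle genes rose, whereas 0 of 76 ribosomal genes and 1 of 23 import genes did, against 14.4% of all genes. On totals 0 rose in each of these lists, and 0, 7, 3, 28 and 9 fell in the same order, at or below the background of 38.2% in all but the import genes (39.1%). Calls for Sdha, Cox17, Suclg1 and Timm17a were made with TMM only. Ssbp1, which binds single-stranded mitochondrial DNA, was the single gene of 14 called in its list with TMM and was lower under each scaling (log2 -0.37 ± 0.09, edgeR adjusted p = 0.00822), with 9 of the 14 lower on totals (64.3%, against 38.2% of all genes). Of the 10 other mt- genes 0 were called under either scaling.

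Of the 10 regulators of mitochondrial biogenesis 3 rose and 1 fell with TMM, and 2 rose and 4 fell on totals, where 3.67% of all genes were higher and 38.2% lower. Ppargc1a, the coactivator PGC-1 alpha, had a lowest, median and highest level of 0.0361, 0.0548 and 0.0670 in control and 0.0625, 0.108 and 0.149 with KPT-330. The log2 fold change was 1.16 ± 0.20 with TMM (edgeR adjusted p = 0.00138) and 0.89 ± 0.18 on totals (0.00225). Only the edges of the ranges overlapped. Esrrg, an estrogen-related receptor that partners with this coactivator, went the other way, with 0.235, 0.284 and 0.406 in control and 0.0963, 0.138 and 0.322 with KPT-330. Its log2 fold change was -0.72 ± 0.12 with TMM (edgeR adjusted p = 0.00151) and -0.98 ± 0.16 on totals (0.000711). Each of the pair was called under both scalings, unlike the 7 nuclear members called with TMM.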

How the data were processed

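Reads were demultiplexed by the authors with bcl2fastq and aligned by STAR to the mouse build mm10, and the Drop-seq pipeline grouped them into cells and molecules. The deposited values are counts of UMIs per gene symbol and barcode, without normalization. The per-sample files hold 26229 barcodes, and the 19877 cells named in the authors' merged table were used. The stated limits were at least 500 genes, at most 30000 UMIs and at most 35% mitochondrial UMIs, with doublets removed by the authors.

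Counts were summed per library or per library and class (at least 20 cells) and tested in R 4.3.3 with edgeR 4.0.16, TMM factors, filterByExpr and day as a factor, for day 6 against day 0 with a mean for each condition and day. Cells were clustered with Seurat 5.3.0 and sctransform 0.4.2 (9 components, 20 neighbours, resolution 0.45), after 13 member or mt- genes were taken out of 3000 variable genes. Tests were checked on simulated data. Precision is limited by the UMIs of each library.

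Membership follows from symbols, but these members and the gene lists were chosen for study with earlier results of these data known. Named genes are the mitochondrial members, those with the smallest p in each group and direction, isoform families and the smallest p within each class. Alternatives were other scalings, DESeq2 1.42.0, no filter, other cell sets, left-out libraries and days, and the replicate number as a block.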

Additional observations from a re-analysis of the deposited data

How the results depend on the processing

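The fall of the nuclear members from day 0 to day 6 kept its direction in every alternative run, with 56 to 67 called lower except without single libraries (35 to 65). For KPT-330 against control, 4 nuclear members were higher with all barcodes, 3 with cells of at most 20% mt- UMIs, and 0 on library totals, a scaling added after the data were seen, where 6 were lower; leaving out single libraries or days gave 0 to 16. On totals Cox4i1 and Uqcrc2 turned to -0.00731 and -0.00838. Mitochondrial members called were 5 (KPT-330 against control) and 2 (day 6 against day 0) without a filter, 1 with all barcodes and 2 on totals for day 6 against day 0, 1 in DESeq2 for the slope with day, and 1 without a filter for the interaction; without single libraries they were 0 to 1, 0 to 2 and 0 to 1. The slope with day gave 4 to 65 nuclear members without single libraries or days. Within classes, Paneth-like cells gave 1 nuclear member on totals (Ndufa13) and 7 mitochondrial members without a filter, and 0 to 1 without single days. Enterocyte-like cells gave 2 nuclear members with at least 50 cells. Stem I-like cells gave 1 nuclear member (Uqcrq, lower) without a filter, by highest marker score and on totals, and 1 mitochondrial member without a filter. Cox7a1 in enterocyte-like cells was called in every alternative run (-1.17 to -0.94).

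Whether libraries with the same replicate number belong together across groups stayed undecided, since the meaning of the numbers is not given. Differences between replicates correlated by 0.37 for the day 6 groups and by 0.01 to 0.10 otherwise, and low correlations do not exclude a pairing. Mitochondrial ribosomal RNA was higher in replicate 1 in every group with 2 libraries (log2 0.41 to 1.23). Nuclear members differed in both directions (log2 -0.15 to 0.08). With the replicate block, 2 mitochondrial members were called for day 6 against day 0, 1 nuclear (Ndufa2) and 4 mitochondrial members in Paneth-like cells and 1 nuclear member in stem I-like cells. Cycling-like cells could not be fitted with the block or with at least 50 cells. The KPT-330 difference on single days, most of which have 1 library per condition, was not tested, and low members rest on few UMIs. Leaving out KPT-330 day 6 replicate 1 within classes, added after the data were seen, changed no count of called members in the 4 classes that held it.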
